A study of Homo sapiens with 12 samples.

Results

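The genes described here are 30 genes of mitosis and the G2/M transition of the cell cycle, chosen by name: cyclins and regulators of CDK1, mitotic kinases, spindle checkpoint and ubiquitin ligase components, centromere and kinetochore proteins, spindle proteins and chromosome proteins. All 30 were measured, among 19775 genes on the arrays. Their RNA was followed in U-87 MG, an established human glioma cell line, on 12 Affymetrix arrays. Cells stably transfected with a hairpin RNA against p105 (shp105) were set against cells with a control hairpin (shControl). Both were treated with temozolomide (TMZ) at 100 µM or with its vehicle DMSO, and the labels give 16 hours of treatment. The 4 groups, with 3 biological replicates each, were thus shp105 cells with TMZ, shp105 cells with DMSO, shControl cells with TMZ and shControl cells with DMSO. No other genetic change is given, and the labels do not say whether a line was 1 clone or a pool, or whether replicates came from separate cultures. The p-values therefore measure the spread between these samples, which may be technical.

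Temozolomide is an alkylating drug used against glioma, and its O6-methylguanine lesions lead to DNA breaks through mismatch repair as cells replicate. p105, the product of NFKB1, is the precursor of the p50 subunit of NF-κB. Entry into mitosis is driven by CDK1 bound to cyclin B, which is switched on by CDC25 phosphatases and held back by DNA damage checkpoints. The Aurora, Polo and NEK kinases then build the spindle, and the spindle checkpoint restrains the anaphase-promoting complex (APC/C) until chromosomes are attached. RNAs of these genes are low in G1 and highest around G2 and mitosis, so that in bulk RNA a lower level can come from fewer cells in that phase or from less RNA per cell, and the arrays cannot tell these apart.

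Many promoters of this gene class are known to carry a cell cycle homology region (CHR), bound by the DREAM and B-MYB complexes, and CCAAT boxes, bound by NF-Y. Promoter windows running from 250 bases before to 50 after the start site were found in the RefSeq table of GRCh38.p14 for 25 of the 30 genes, 30 windows in all because 3 genes had several. The CHR letters TTTGAA or TTCGAA, on either strand, were present in 21 of the 30 windows (70.0%) and in 16.4% of all 35116 windows in the table. CCAAT, on either strand, was present in 25 of the 30 (83.3%), against 34.6% of all windows. Both were present in 19 of the 30 (63.3%), against 6.38% of all windows. Letter matches are descriptions and not shown to be binding sites. Both kinds of letters can overlap, as in the MKI67 window, where a TTTGAA runs into a CCAAT of the other strand.

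The 250 bases before the start site are printed for KIF11, MKI67 and HMMR, the members with CHR letters in their window whose levels differed between the lines with the smallest p-values. KIF20A, which differed in the opposite direction, was added after its values were seen. Sequences run 5′ to 3′ on the gene's strand, and capitals mark TTTGAA and CCAAT on either strand, so that TTCAAA and ATTGG are their reverse complements. The GRCh38.p14 positions are chr10:92592880-92593129 (plus strand) for KIF11, chr10:128126424-128126673 (minus strand) for MKI67, chr5:163460382-163460631 (plus strand) for HMMR and chr5:138178862-138179111 (plus strand) for KIF20A.
KIF11: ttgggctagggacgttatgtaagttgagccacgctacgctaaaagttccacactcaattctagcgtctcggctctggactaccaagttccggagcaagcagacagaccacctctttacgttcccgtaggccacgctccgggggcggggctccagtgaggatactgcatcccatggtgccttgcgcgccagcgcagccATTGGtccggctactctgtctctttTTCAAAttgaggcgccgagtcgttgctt
MKI67: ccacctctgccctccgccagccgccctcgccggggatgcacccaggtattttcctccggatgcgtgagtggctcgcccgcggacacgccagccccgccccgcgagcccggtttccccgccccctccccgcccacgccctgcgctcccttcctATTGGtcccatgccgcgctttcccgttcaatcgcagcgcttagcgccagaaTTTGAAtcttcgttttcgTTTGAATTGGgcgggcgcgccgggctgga
HMMR: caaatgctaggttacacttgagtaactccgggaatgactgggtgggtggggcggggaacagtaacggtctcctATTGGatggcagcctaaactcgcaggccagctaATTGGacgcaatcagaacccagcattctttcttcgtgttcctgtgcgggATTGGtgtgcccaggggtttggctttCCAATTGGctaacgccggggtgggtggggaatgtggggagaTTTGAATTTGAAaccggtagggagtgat
KIF20A: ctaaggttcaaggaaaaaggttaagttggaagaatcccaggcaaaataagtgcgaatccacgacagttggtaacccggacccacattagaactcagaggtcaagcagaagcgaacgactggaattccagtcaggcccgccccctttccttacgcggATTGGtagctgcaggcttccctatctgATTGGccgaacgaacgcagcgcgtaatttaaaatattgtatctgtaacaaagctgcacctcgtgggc
In KIF11 the CHR letters began 28 bases before the start site. MKI67 held them at 47 and 29 bases before it, and HMMR at 28 and 22. Elsewhere the place varied. In PLK1 and CCNB2 the letters began 29 bases before the start site, in BUB1B 23, in CENPA 18 and in KIF23 55. In ASPM they began 113 bases before it, in CDKN3 170, in CDC20 178 and 65, in TOP2A 194 and 151, and in DLGAP5 138 and 109, with another after the start. In BUB1, CENPF and NUSAP1 they lay after the start site, and in NDC80 on either side of it. In CDC25C 1 window held them 30 bases before the start site, another after it, and the other 2 held neither kind of letters. CDK1 held them in both of its windows. No TTTGAA or TTCGAA was found in the KIF20A window, which held CCAAT letters at 2 places, and the windows of CCNB1, NEK2, CCNA2 and AURKB likewise held CCAAT letters alone. The CENPE window held neither.

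Levels below are on the log2 scale in which the authors deposited them, and the brightest probe set with a single gene symbol stood for each gene. Sample medians lay between 5.04 and 5.09, and samples correlated at 0.990 to 0.998 between groups, with no identical pair. Averaged over all 12 samples, the 30 genes had levels of 7.50 to 12.29, while probe sets for the bacterial Dap, Lys, Phe, Thr and Trpn transcripts averaged 2.51 to 4.06. The bacterial hybridisation controls given below are other probe sets. From a list of 7 glial and glioma cell markers, VIM and CD44 were high, with group means of 14.73 to 14.81 and 12.63 to 12.99. GFAP, S100B, SOX2, NES and OLIG2 had group means of 3.50 to 5.53. Thus 2 of the 7 were high, and a glial identity was not shown by these markers. OLIG2 was higher in shp105 than in shControl cells (1.37 with TMZ and 1.22 with DMSO) and CD44 lower (-0.32 and -0.25). The 5 leukocyte markers measured had group means of 2.92 to 5.87 and the 6 epithelial and endothelial markers 3.13 to 5.87. Summed, the leukocyte markers ranged from 6.90 to 7.03 in shp105 cells with TMZ, 6.90 to 7.03 in shp105 cells with DMSO, 7.01 in shControl cells with TMZ and 6.99 to 7.03 in shControl cells with DMSO. The epithelial and endothelial sum ranged from 7.25 to 7.39, 7.21 to 7.39, 7.45 to 7.61 and 7.36 to 7.57 in the same order of groups, and 1 of its 6 genes, EPCAM, was called between the lines (-0.45 with TMZ and -0.39 with DMSO). The part of these markers in the line differences was not tested. NFKB1, the targeted gene, stood at 7.14, 7.22 and 7.14 in shp105 cells with TMZ, against 7.50, 7.45 and 7.30 in shControl cells with TMZ. With DMSO it stood at 7.17, 7.27 and 7.16 in shp105 cells, against 7.40, 7.23 and 7.34 in shControl cells. It was lower in shp105 cells by 0.25 (adjusted p = 0.0204) with TMZ and its difference of -0.12 with DMSO did not pass the test (adjusted p = 0.26), so the RNA of the target showed a small difference and the samples overlapped with DMSO. The GAPDH control probe sets, a measure of RNA quality, had a 3′ level minus 5′ level of 0.372 to 0.439 in shp105 cells with TMZ, against 0.272 to 0.323 in shControl cells with TMZ. With DMSO it was 0.330 to 0.402 in shp105 cells, against 0.221 to 0.270 in shControl cells. It did not overlap between the lines under either treatment, and its part in the line differences was not tested. For ACTB the same measure was larger, at 3.01 to 3.15 in shp105 cells with TMZ and 2.94 to 3.14 with DMSO. In shControl cells it was 2.78 to 2.94 with TMZ and 2.95 to 3.07 with DMSO. ACTB did not overlap between the lines with TMZ, nor between treatments in shControl cells, where GAPDH was apart in the other direction. The part of ACTB in the differences was not tested. Bacterial hybridisation controls differed between groups as well. Their mean over 18 probe sets was 11.32 ± 0.13 in shp105 cells with TMZ, 11.13 ± 0.10 in shp105 cells with DMSO, 10.95 ± 0.09 in shControl cells with TMZ and 10.63 ± 0.05 in shControl cells with DMSO (SD, n = 3 each). Where a difference below runs along with this control level, its part in the result was not tested beyond the fit that took the control level as a covariate.

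Averaged over the 30 genes, the log2 level was 10.49 ± 0.03 in shp105 cells with TMZ, 10.36 ± 0.02 in shp105 cells with DMSO, 10.63 ± 0.01 in shControl cells with TMZ and 10.47 ± 0.01 in shControl cells with DMSO (SD, n = 3 each). The samples with TMZ lay above those with DMSO in both lines, and the samples of shp105 cells lay below those of shControl cells under the same treatment. The mean difference was 0.13 for TMZ against DMSO in shp105 cells and 0.16 in shControl cells. Between the lines it was -0.14 with TMZ and -0.11 with DMSO.

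**Figure D1:**
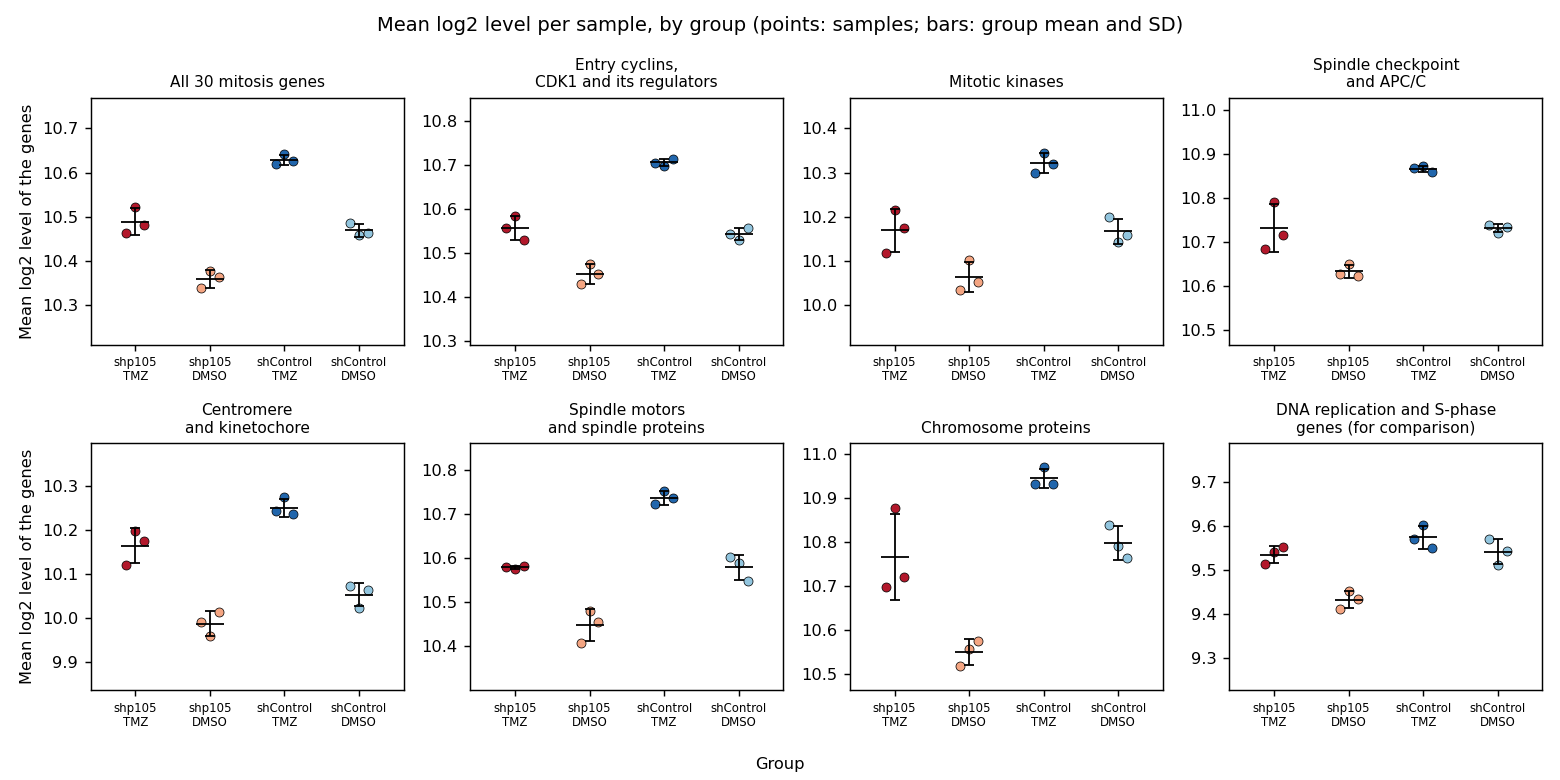
Mean log2 level per sample (y axis) by group (x axis) for all 30 genes, for each of their 6 roles and for the S-phase genes, 1 panel each; points are samples and bars are the group mean and SD. Over the 30 genes the shp105 samples with DMSO lie lowest, at 10.34 to 10.38, and the shControl samples with TMZ highest, at 10.62 to 10.64.

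The first question was how TMZ moved these genes within each line. In shp105 cells 27 of the 30 differences lay above 0 and 2 genes rose past the test, the kinetochore motor CENPE and the phosphatase CDC25C. In shControl cells all 30 lay above 0 and 1 gene rose, CENPE. No gene of the set fell in either line. For comparison, 0.647% of all genes rose and 0.217% fell in shp105 cells, and 0.253% rose and 0.116% fell in shControl cells. Differences above 0 made up 54.6% of all genes in shp105 cells and 48.8% in shControl cells. The differences were small, with medians of 0.14 in shp105 cells and 0.16 in shControl cells beside 0.01 and -0.00 over all genes.

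CENPE moves chromosomes toward the spindle equator. Its level was 9.53, 9.67 and 9.56 in shp105 cells with TMZ, against 9.32, 9.30 and 9.37 with DMSO. In shControl cells it was 9.79, 9.84 and 9.80 with TMZ, against 9.47, 9.42 and 9.47 with DMSO. Every sample with TMZ lay above every sample with DMSO of its line. CENPE rose by 0.26 ± 0.05 (SE, adjusted p = 0.0471), or 1.20-fold, in shp105 cells, and by 0.36 ± 0.05 (adjusted p = 0.0175), or 1.28-fold, in shControl cells.

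CDC25C removes inhibitory phosphates from CDK1. Its level was 7.57, 7.72 and 7.66 in shp105 cells with TMZ, against 7.35, 7.18 and 7.32 with DMSO. In shControl cells it was 7.63, 7.83 and 7.74 with TMZ, against 7.38, 7.24 and 7.41 with DMSO. The groups did not overlap in either line. The increase of 0.37 ± 0.07, or 1.29-fold, passed the test in shp105 cells (adjusted p = 0.0447), while the 0.39 ± 0.07 in shControl cells did not (adjusted p = 0.0531).

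Next in order of p were NUSAP1 in shp105 cells and CENPF in shControl cells, neither past the test. NUSAP1, a microtubule-bundling spindle protein, had 10.98, 10.95 and 10.96 in shp105 cells with TMZ, against 10.76, 10.81 and 10.74 with DMSO, a difference of 0.19 ± 0.04 (adjusted p = 0.0661). In shControl cells it had 11.12, 11.13 and 11.12 with TMZ, against 10.98, 11.03 and 10.99 with DMSO, a difference of 0.13 (adjusted p = 0.321). The samples did not overlap in either line. CENPF, a kinetochore-associated protein, had 11.30, 11.35 and 11.40 in shp105 cells with TMZ, against 11.20, 11.11 and 11.14 with DMSO, a difference of 0.20 (adjusted p = 0.0867). In shControl cells it had 11.51, 11.55 and 11.48 with TMZ, against 11.26, 11.23 and 11.33 with DMSO, a difference of 0.24 ± 0.05 (adjusted p = 0.0997). Here too the samples with TMZ stood above those with DMSO.

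**Figure D2:**
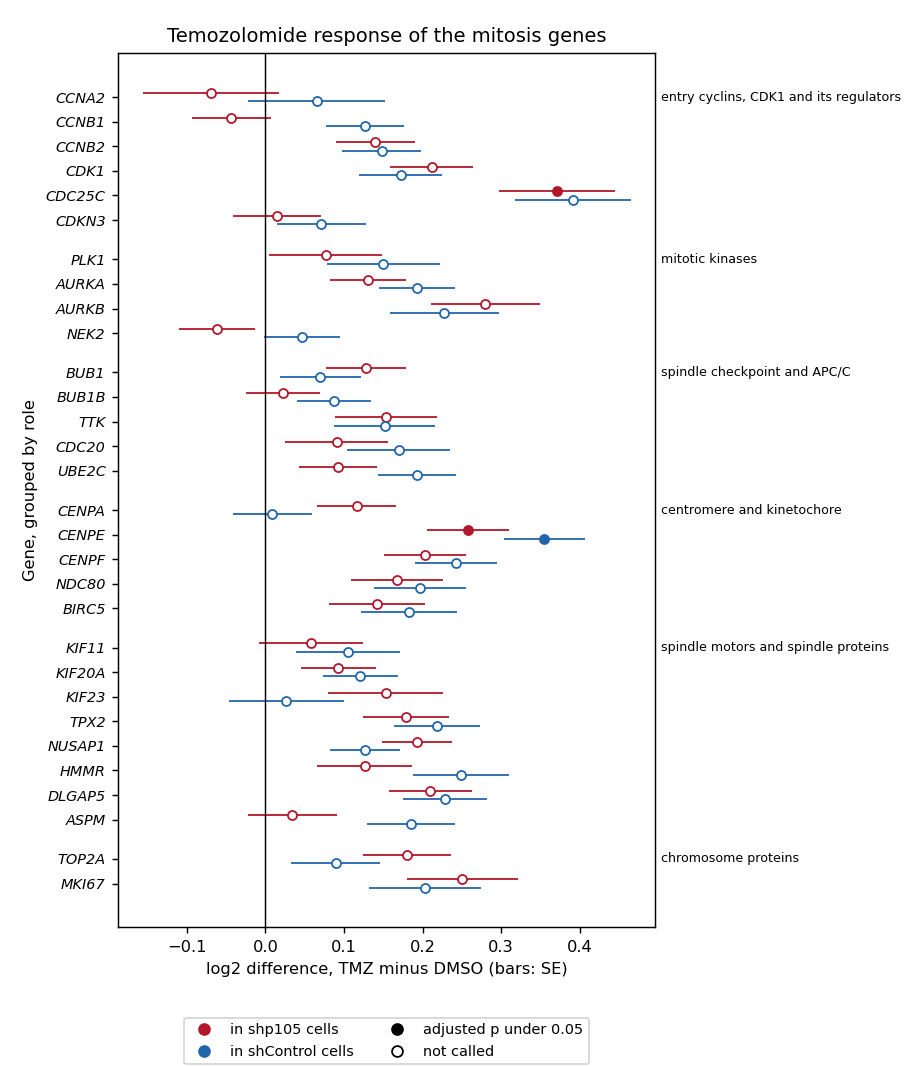
Log2 difference of TMZ minus DMSO for each of the 30 genes (rows, by role) in shp105 cells and in shControl cells; points are fitted differences, bars are standard errors and filled points passed the test. Most points lie right of 0 in both lines, and the filled ones are CENPE in both and CDC25C in shp105 cells.

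By role, the median TMZ difference of the 6 cyclins and CDK1 regulators was 0.08 in shp105 cells and 0.14 in shControl cells. The mitotic cyclins CCNB1, CCNB2 and CCNA2 differed by -0.04, 0.14 and -0.07 in shp105 cells and by 0.13, 0.15 and 0.07 in shControl cells. CDK1 itself differed by 0.21 and 0.17, and CDKN3, a phosphatase that acts on CDKs, by 0.01 and 0.07, in shp105 and shControl cells. None of these passed the test. Other CDK1 probe sets did when each probe set was tested on its own. Sets averaging 10.38 and 10.09 rose by 0.38 (adjusted p = 0.0244) and 0.34 (adjusted p = 0.0336) in shp105 cells, and a set averaging 7.29 rose by 0.55 (adjusted p = 0.00694) in shControl cells. In that same test of single probe sets, CENPE and CDC25C were not called in shp105 cells. CENPE was still called there in shControl cells.

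Medians of the 4 kinases were 0.10 in shp105 cells and 0.17 in shControl cells. AURKB, the kinase of the chromosomal passenger complex, differed by 0.28 (adjusted p = 0.0802) in shp105 cells and 0.23 in shControl cells. The centrosomal and spindle kinases AURKA (0.13 and 0.19) and PLK1 (0.08 and 0.15) had positive differences in both lines, and NEK2, which acts in centrosome separation, had -0.06 in shp105 cells and 0.05 in shControl cells. The 5 spindle checkpoint and APC/C genes had medians of 0.09 and 0.15 in the same order. Among them the checkpoint kinases BUB1 (0.13 and 0.07) and TTK (0.15 and 0.15), the checkpoint protein BUB1B (0.02 and 0.09), the APC/C activator CDC20 (0.09 and 0.17) and its ubiquitin-conjugating partner UBE2C (0.09 and 0.19) all fell short of the test.

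Beside CENPE and CENPF, the centromeric histone CENPA differed by 0.12 in shp105 cells and 0.01 in shControl cells. The microtubule-binding NDC80 (0.17 and 0.20) and the passenger protein BIRC5 (0.14 and 0.18) were not called in either line. The 8 spindle genes had medians of 0.14 and 0.16. Of these, the spindle assembly factors TPX2 (0.18 and 0.22) and DLGAP5 (0.21 and 0.23) and the motors KIF11 (0.06 and 0.10), KIF20A (0.09 and 0.12) and KIF23 (0.15 and 0.03) were above 0 in both lines, shp105 first. HMMR, a spindle-associated hyaluronan receptor, differed by 0.13 in shp105 cells and 0.25 in shControl cells and was not called. Tested on its own, its second probe set, averaging 10.32, rose in both lines, by 0.36 (adjusted p = 0.0222) in shp105 cells and 0.37 (adjusted p = 0.0231) in shControl cells. The spindle pole protein ASPM differed by 0.03 and 0.18. The chromosome proteins MKI67, which coats mitotic chromosomes, and TOP2A, which untangles DNA, differed by 0.25 and 0.18 in shp105 cells and by 0.20 and 0.09 in shControl cells.

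At an unadjusted p under 0.05, 17 of the 30 genes were higher with TMZ in shp105 cells, where 9.59% of all genes were, and 20 of the 30 in shControl cells, where 5.26% were. Samples with TMZ all lay above samples with DMSO for 17 genes in shp105 cells (12.5% of all genes) and for 25 in shControl cells (9.21%). The 30 genes all lie above the median level, while these shares over all genes include dimmer genes. In a fit without genes below the median level, 10 members were called in shp105 cells, beside 904 genes in all. In shControl cells 8 were called, beside 291. The part of level in these shares was not tested further. Both lines' differences, which share no sample, had the same sign for 27 of the 30 genes, with Pearson's r of 0.674 and Spearman's rho of 0.626 across genes. Genes are not independent replicates, and no p is given for these values. These calls lay close to the threshold. With a variance trend and robust estimation 12 members were called in shp105 cells and 11 in shControl cells, and with only the 2 groups compared in the fit 0 in each. Median centring and sample weights each left 0 in shp105 cells. In shp105 cells leaving out any 1 of 11 samples ended the CENPE call (adjusted p 0.0639 to 0.15, differences 0.22 to 0.28), the exception being shp105 TMZ replicate 1. In shControl cells leaving out any of that line's 6 samples ended it (adjusted p 0.0683 to 0.116, differences 0.34 to 0.37). Leaving out any 1 of 10 samples, all but shp105 TMZ replicate 1 and shControl DMSO replicate 2, ended the CDC25C call in shp105 cells (adjusted p 0.0517 to 0.15, differences 0.32 to 0.40). With the mean over probe sets CDC25C differed by 0.15 (adjusted p = 0.462) in shp105 cells. All probe sets of a gene had the same sign for 9 of the 18 members with several in shp105 cells, and for 17 in shControl cells. In shp105 cells the lowest set of BUB1 differed by -0.26 and that of CCNB2 by -0.22, while the highest set of CCNA2 differed by 0.24. No member was called in either line with the control level as a covariate. The median difference was then 0.13 in shp105 cells and 0.16 in shControl cells, beside 0.14 and 0.16 without it, while the median SE was 0.0758 and 0.0993, beside 0.0553.

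The second question was how the lines differed. With TMZ, 13 of the 30 genes were lower in shp105 cells than in shControl cells and 1 was higher. With DMSO, 12 were lower and 2 were higher. Over all genes, 11.0% were lower and 10.1% higher with TMZ, and 11.6% were lower and 8.34% higher with DMSO. The difference lay below 0 for 25 of the 30 genes under each treatment, as for 51.8% of all genes with TMZ and 53.9% with DMSO. Cyclin B1, the motor KIF11, the kinases AURKA and NEK2, CDK1 and the proliferation marker MKI67 were among the lower genes under both treatments, and the motor KIF20A was higher under both. The medians over the 30 genes were -0.12 with TMZ and -0.12 with DMSO, and the median over all genes was -0.01 with each. The 30 genes stood at percentiles 60.3 to 98.1 of level, while the shares over all genes include dimmer genes. In a fit without genes below the median level, 17 of the 30 were called in either direction with TMZ, beside 4332 genes in all. With DMSO 20 were called, beside 4176 genes in all. That fit held only the genes at or above the median level, so these counts are out of fewer than 19775 genes. The fit of all 19775 genes called 4166 with TMZ and 3937 with DMSO. The share of genes called was thus larger in the fit of brighter genes than over all genes. The part of level in the shares was not tested further.

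CCNB1, the cyclin that partners CDK1 in mitosis, gave the smallest p of the set. With TMZ, CCNB1 stood at 11.70, 11.80 and 11.75 in shp105 cells, against 12.14, 12.17 and 12.12 in shControl cells. With DMSO, CCNB1 stood at 11.75, 11.85 and 11.78 in shp105 cells, against 12.01, 12.02 and 12.02 in shControl cells. Every shp105 sample lay below every shControl sample. The difference was -0.39 ± 0.05 (SE, adjusted p = 0.00014) with TMZ, which is 0.761 times the shControl level, and -0.22 ± 0.05 (adjusted p = 0.00737) with DMSO. A second CCNB1 probe set, averaging 9.92, differed by -0.59 with TMZ and -0.48 with DMSO.

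CDK1, its kinase, was lower as well. With TMZ, CDK1 stood at 11.90, 11.82 and 11.84 in shp105 cells, against 12.09, 12.01 and 12.07 in shControl cells. With DMSO, CDK1 stood at 11.62, 11.68 and 11.62 in shp105 cells, against 11.92, 11.92 and 11.81 in shControl cells. The lines did not overlap under either treatment, and CDK1 was lower in shp105 cells by 0.21 ± 0.05 with TMZ (adjusted p = 0.0155) and by 0.25 ± 0.05 with DMSO (adjusted p = 0.00588). CDKN3 was lower by 0.27 with TMZ (adjusted p = 0.0047) and by 0.21 with DMSO (adjusted p = 0.0194). The other genes of mitotic entry were not called: CCNA2 differed by 0.13 with TMZ and 0.27 (adjusted p = 0.0519) with DMSO, CCNB2 by -0.07 with each, and CDC25C by -0.08 with TMZ and -0.06 with DMSO.

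Among the 4 kinases, NEK2 and AURKA were lower in shp105 cells under both treatments. With TMZ, NEK2 stood at 10.63, 10.58 and 10.58 in shp105 cells, against 10.94, 10.97 and 10.98 in shControl cells. With DMSO, NEK2 stood at 10.62, 10.70 and 10.66 in shp105 cells, against 10.90, 10.97 and 10.87 in shControl cells. The lines were well apart, by -0.36 ± 0.05 with TMZ (adjusted p = 0.000203) and -0.25 ± 0.05 with DMSO (adjusted p = 0.00269). With TMZ, AURKA stood at 12.05, 12.12 and 12.02 in shp105 cells, against 12.36, 12.39 and 12.34 in shControl cells. With DMSO, AURKA stood at 11.94, 11.94 and 11.92 in shp105 cells, against 12.18, 12.21 and 12.12 in shControl cells. No shp105 sample reached a shControl sample of the same treatment, and AURKA was lower by 0.30 ± 0.05 with TMZ (adjusted p = 0.000917) and by 0.24 ± 0.05 with DMSO (adjusted p = 0.00449). PLK1 was higher in shp105 cells by 0.25 with DMSO (adjusted p = 0.0307), and its 0.17 with TMZ was not called (adjusted p = 0.117). AURKB was not called, at -0.12 with TMZ and -0.17 with DMSO.

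Of the checkpoint and APC/C genes, UBE2C was lower by 0.25 with TMZ (adjusted p = 0.00318) and by 0.15 with DMSO, where its adjusted p lay just under the threshold of 0.05. BUB1 was lower by 0.17 with DMSO (adjusted p = 0.0415) and differed by -0.11 with TMZ (adjusted p = 0.178). BUB1B (-0.12 with TMZ and -0.05 with DMSO), TTK (-0.07 and -0.07) and CDC20 (-0.13 and -0.05) were not called under either treatment.

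At the kinetochore, CENPE and CENPF were lower in shp105 cells with TMZ, by 0.22 ± 0.05 (adjusted p = 0.00909) and 0.16 ± 0.05 (adjusted p = 0.0462). With DMSO they differed by -0.13 (adjusted p = 0.124) and -0.12 (adjusted p = 0.136). A dimmer CENPF probe set, averaging 7.93, differed by -0.56 with TMZ and by -0.45 with DMSO. CENPA (-0.01 with TMZ and -0.12 with DMSO), NDC80 (-0.05 and -0.02) and BIRC5 (0.02 and 0.06) did not pass the test. Tested on its own, a dimmer BIRC5 probe set, averaging 7.75, was higher in shp105 cells with DMSO by 0.35 (adjusted p = 0.0239). With TMZ that set differed by 0.20 (adjusted p = 0.187).

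Spindle genes held both the lower KIF11 and the higher KIF20A. KIF11 is the kinesin that pushes spindle poles apart. With TMZ, KIF11 stood at 9.67, 9.50 and 9.48 in shp105 cells, against 9.97, 9.93 and 10.00 in shControl cells. With DMSO, KIF11 stood at 9.41, 9.54 and 9.53 in shp105 cells, against 9.92, 9.89 and 9.78 in shControl cells. All shp105 samples lay below all shControl samples of the same treatment. KIF11 had 0.749 times the shControl level with TMZ, a difference of -0.42 ± 0.07 (adjusted p = 0.000785), and differed by -0.37 ± 0.07 with DMSO (adjusted p = 0.00184).

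KIF20A, a kinesin of the central spindle and cytokinesis, went the other way. With TMZ, KIF20A stood at 10.31, 10.36 and 10.36 in shp105 cells, against 10.05, 10.08 and 10.04 in shControl cells. With DMSO, KIF20A stood at 10.22, 10.29 and 10.25 in shp105 cells, against 9.99, 9.92 and 9.90 in shControl cells. Every shp105 sample lay above every shControl sample, by 0.29 ± 0.05 or 1.22-fold with TMZ (adjusted p = 0.0011) and by 0.31 ± 0.05 or 1.24-fold with DMSO (adjusted p = 0.000585). KIF23, the kinesin of the centralspindlin complex, was lower with DMSO. With DMSO, KIF23 stood at 9.25, 9.45 and 9.36 in shp105 cells, against 9.70, 9.79 and 9.56 in shControl cells, a difference of -0.33 ± 0.07 (adjusted p = 0.00708). With TMZ, KIF23 stood at 9.43, 9.57 and 9.53 in shp105 cells, against 9.65, 9.77 and 9.71 in shControl cells, and the -0.20 ± 0.07 was not called (adjusted p = 0.0718). The samples of both lines did not overlap for KIF23 under either treatment.

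HMMR and ASPM complete the spindle genes with the smallest p with TMZ. With TMZ, HMMR stood at 11.85, 11.63 and 11.79 in shp105 cells, against 12.11, 12.06 and 12.16 in shControl cells. With DMSO, HMMR stood at 11.62, 11.63 and 11.65 in shp105 cells, against 11.84, 11.89 and 11.85 in shControl cells. The lines did not overlap, with differences of -0.35 ± 0.06 with TMZ (adjusted p = 0.00141) and -0.23 ± 0.06 with DMSO (adjusted p = 0.0203). With TMZ, ASPM stood at 10.60, 10.54 and 10.47 in shp105 cells, against 10.86, 10.86 and 10.79 in shControl cells. With DMSO, ASPM stood at 10.44, 10.51 and 10.55 in shp105 cells, against 10.70, 10.59 and 10.66 in shControl cells. ASPM was lower with TMZ by 0.30 ± 0.06 (adjusted p = 0.00226), and its -0.15 with DMSO was not called (adjusted p = 0.0873), although the samples did not overlap. NUSAP1, whose samples are given above, was lower by 0.16 ± 0.04 with TMZ (adjusted p = 0.0226) and by 0.23 ± 0.04 with DMSO (adjusted p = 0.0032). TPX2 (-0.11 with TMZ and -0.07 with DMSO) and DLGAP5 (-0.00 and 0.02) were not called.

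MKI67, the gene of the Ki-67 antigen, had the most negative difference of the set with DMSO. With TMZ, MKI67 stood at 10.18, 10.45 and 10.26 in shp105 cells, against 10.65, 10.71 and 10.62 in shControl cells. With DMSO, MKI67 stood at 10.07, 10.05 and 10.01 in shp105 cells, against 10.55, 10.41 and 10.41 in shControl cells. The shp105 samples were the lower ones throughout, by 0.36 ± 0.07 with TMZ (adjusted p = 0.00318) and by 0.41 ± 0.07 with DMSO (adjusted p = 0.00144), which is 0.753 times the shControl level. Its 4 probe sets did not move alike: 1 of them, averaging 8.08, differed by 0.16 with TMZ and 0.18 with DMSO. TOP2A was not called, at 0.00 with TMZ and -0.09 with DMSO.

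**Figure D3:**
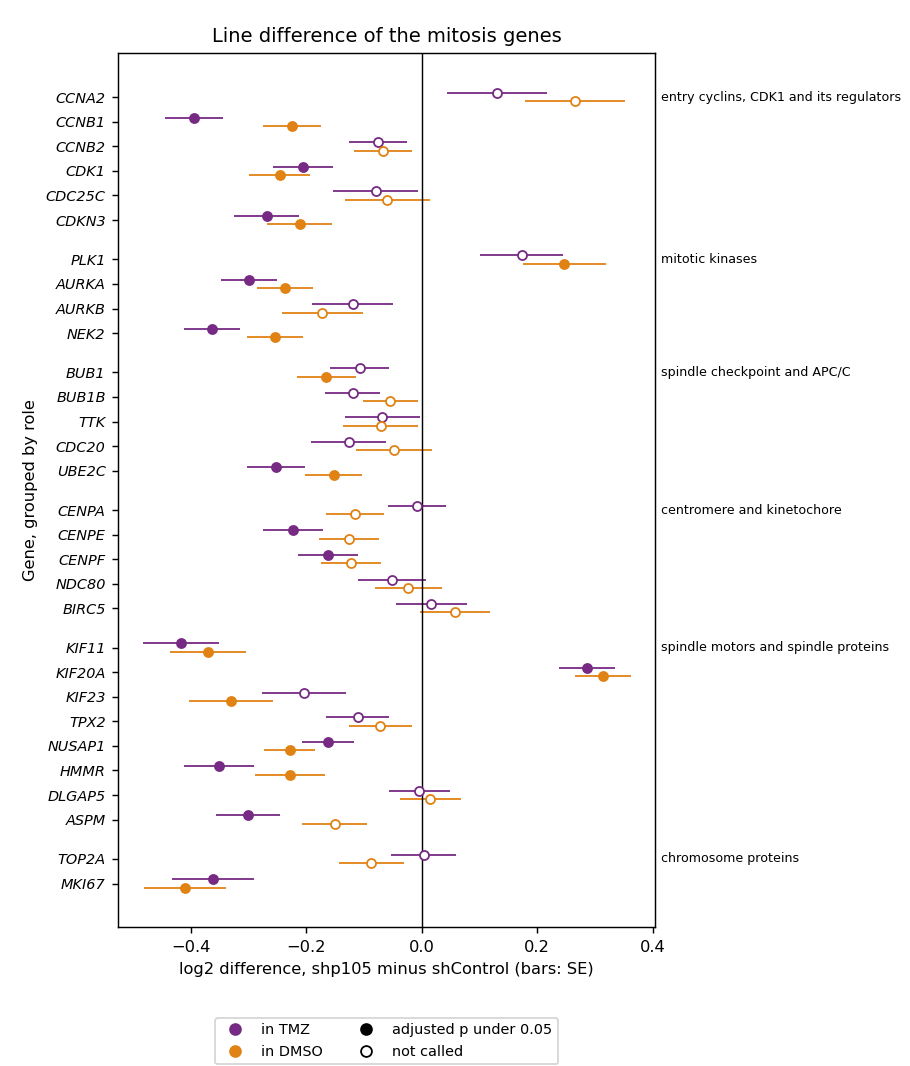
Log2 difference of shp105 minus shControl for each of the 30 genes (rows, by role) with TMZ and with DMSO; points are fitted differences, bars are standard errors and filled points passed the test. Most filled points lie left of 0, down to -0.42 for KIF11 with TMZ, while KIF20A lies right of 0 under both treatments.

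Of the 14 genes called with TMZ and the 14 called with DMSO, 11 were the same and had the same direction, which is 78.6% of each list. The differences under both treatments, which share no sample, had the same sign for 28 of the 30 genes, with Pearson's r of 0.898 and Spearman's rho of 0.854 across genes, given without a p. For 19 genes with TMZ and 18 with DMSO every shp105 sample lay below every shControl sample, as it did for 18.5% and 20.8% of all genes. At an unadjusted p under 0.05, 15 genes were lower with TMZ and 17 with DMSO, where 16.6% and 17.4% of all genes were.

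Some of these calls lay close to the threshold, and were lost without 1 sample while the difference kept its direction. Leaving out 1 sample at a time ended the CENPF call with TMZ for 11 of 12 samples (adjusted p 0.0523 to 0.14, differences -0.18 to -0.14), all but shp105 TMZ replicate 3. NUSAP1 with TMZ lost its call without any shControl TMZ sample (adjusted p 0.062 to 0.067, differences of -0.16), and CDK1 with TMZ without shControl TMZ replicate 1 (0.0641) or 3 (0.0547), with differences of -0.19 and -0.20. With DMSO, UBE2C lost its call without any of 10 samples (adjusted p 0.0549 to 0.159, differences -0.16 to -0.13), all but shp105 DMSO replicate 2 and shp105 TMZ replicate 2. BUB1 lost it without any of 8 (adjusted p 0.0506 to 0.16, differences -0.19 to -0.13), which were all but shControl DMSO replicate 2 and the 3 shp105 TMZ samples. CDKN3 with DMSO lost its call without shp105 DMSO replicate 1 (0.0812) or 3 (0.0538) and without shControl DMSO replicate 1 (0.0516) or 3 (0.0819). HMMR with DMSO lost it without shp105 DMSO replicate 1 (0.065) or 2 (0.0546) and without shControl DMSO replicate 2 (0.0692) or 3 (0.0512). PLK1 with DMSO lost it without shp105 DMSO replicate 1 (0.0922) or 2 (0.0869) and without shControl DMSO replicate 1 (0.0535) or 2 (0.121). In these omissions CDKN3 differed by -0.21 to -0.18, HMMR by -0.23 to -0.21 and PLK1 by 0.19 to 0.27. CCNB1, NEK2, KIF11, AURKA, KIF20A and MKI67 kept both their calls in all 12 omissions.

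With the control level as a covariate no member was called between the lines. The median difference was then -0.12 with TMZ and -0.11 with DMSO, beside -0.12 and -0.12 without the covariate, while the median standard error was 0.110 and 0.138, beside 0.0553. A gene's other probe sets did not always follow. Of the 18 members with several probe sets, all sets had the same sign for 12 with TMZ and for 10 with DMSO. With the mean over a gene's probe sets, ASPM differed by -0.02 with TMZ (adjusted p = 0.96), NUSAP1 by -0.07 with TMZ (0.568) and -0.17 with DMSO (0.138), KIF23 by -0.17 with DMSO (0.205), CDK1 by -0.13 with DMSO (0.0608) and BUB1 by 0.02 with DMSO (0.874).

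**Figure D4:**
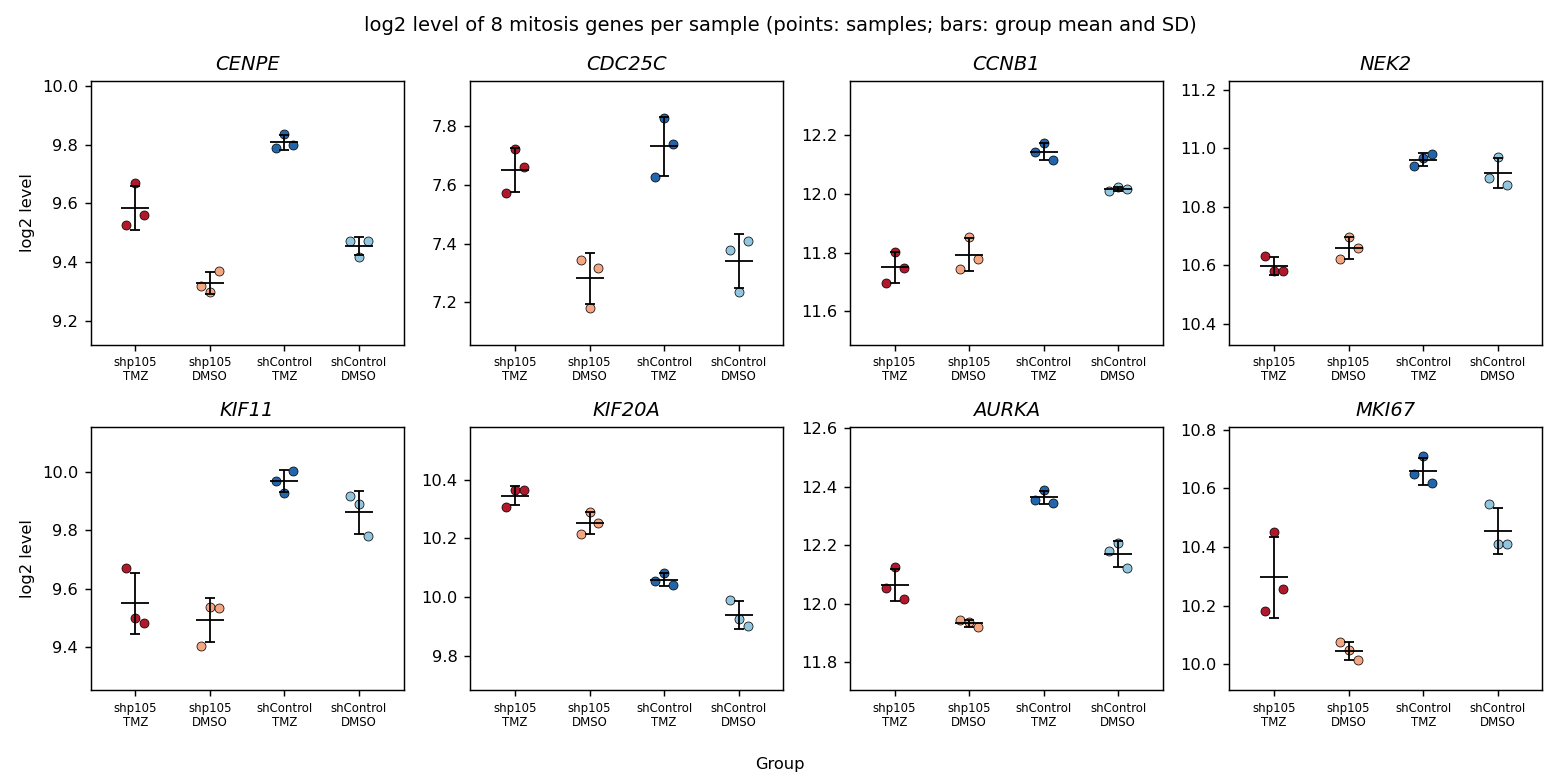
Log2 level in each of the 12 samples (y axis) for 8 of the genes, 1 panel per gene, by group (x axis); points are samples and bars are the group mean and SD. KIF20A lies higher in shp105 cells than in shControl cells and the line order is the other way round for CCNB1, NEK2, KIF11 and AURKA.

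The third question was whether the TMZ response itself differed between the lines. No member passed this test in limma, nor did any of the 19775 genes (0%). At an unadjusted p under 0.05, 1 member had a lower response in shp105 cells than in shControl cells, CCNB1, beside 2.38% of all genes lower and 4.02% higher. The difference of responses for CCNB1 was -0.17 ± 0.07 (adjusted p = 0.769, 95% interval -0.33 to -0.02): with TMZ against DMSO it differed by -0.04 in shp105 cells and by 0.13 in shControl cells. Next were ASPM, with -0.15 ± 0.08 (adjusted p = 0.804, interval -0.32 to 0.02), and NEK2, with -0.11 ± 0.07 (adjusted p = 0.854, interval -0.26 to 0.04). Over the 30 genes the median was -0.04, 21 lay below 0 (45.4% of all genes), and the median SE was 0.0783. The lowest and highest limits of the 95% intervals of single genes were -0.40 and 0.35.

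Other genes of the same pathway were counted from lists. Of 75 further mitosis genes, 5 rose with TMZ in shp105 cells and 0 in shControl cells, and 0 fell, where 0.647% and 0.253% of all genes rose. The median difference was 0.11 in shp105 cells and 0.12 in shControl cells, with 65 and 70 of 75 above 0, beside the same shares of all genes as above. CDCA5, which protects sister chromatid cohesion, rose by 0.36 (adjusted p = 0.0125), the kinetochore gene SPC24 by 0.36 (adjusted p = 0.0486), the centromere gene CENPI by 0.34 (adjusted p = 0.0347) and the CDK-binding CKS1B by 0.31 (adjusted p = 0.0377), all in shp105 cells. In shControl cells these genes differed by 0.18, 0.15, 0.16 and 0.20 in the same order and were not called. Of 39 DNA replication and S-phase genes, 2 rose in shp105 cells and 1 in shControl cells, with medians of 0.09 and 0.04.

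Between the lines, 15 of the 75 were lower and 4 higher in shp105 cells with TMZ, and 11 were lower and 1 higher with DMSO, with medians of -0.05 and -0.07. The shares over all genes were 11.0% lower and 10.1% higher with TMZ and 11.6% lower and 8.34% higher with DMSO, and the count lower with DMSO lay near its share. With TMZ the kinetochore genes SKA1 (-0.43, adjusted p = 0.00561) and ZWINT (-0.35, adjusted p = 0.000277), the passenger scaffold INCENP (-0.31, adjusted p = 0.0155) and the spindle protein FAM83D (-0.30, adjusted p = 0.000494) had the most negative differences among the called genes. The centromere genes OIP5 (0.37, adjusted p = 0.00103) and CENPM (0.22, adjusted p = 0.0384) and the kinetochore genes SPC24 (0.27, adjusted p = 0.0224) and ZWILCH (0.15, adjusted p = 0.0346) were higher. With DMSO, SKA1 (-0.38, adjusted p = 0.0119), ZWINT (-0.31, adjusted p = 0.000638), SPC25 (-0.29, adjusted p = 0.000759) and the microtubule-associated TROAP (-0.26, adjusted p = 0.00593) were lower and OIP5 (0.32, adjusted p = 0.0028) was higher. The S-phase list had 8 lower and 1 higher of 39 with TMZ, median -0.03, and 15 lower and 2 higher with DMSO, median -0.13, beside the same shares of all genes.

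Of the 17 regulators of G2/M genes, 1 was called with TMZ in each line, CDKN1A, which encodes the CDK inhibitor p21. Over all genes, 0.647% rose with TMZ in shp105 cells and 0.253% in shControl cells. CDKN1A stood at 10.91, 10.84 and 10.92 in shp105 cells with TMZ, against 9.97, 9.89 and 10.04 with DMSO, and at 11.30, 11.24 and 11.22 in shControl cells with TMZ, against 10.38, 10.30 and 10.42 with DMSO. The TMZ samples lay well above the DMSO samples in both lines. CDKN1A rose by 0.92 in shp105 cells (adjusted p = 2.8e-05) and by 0.88 in shControl cells (adjusted p = 4.47e-05), and was lower in shp105 than in shControl cells by 0.36 with TMZ (adjusted p = 0.000687) and 0.40 with DMSO (adjusted p = 0.000333). FOXM1, the forkhead activator of G2/M genes, differed by 0.11 with TMZ in shp105 cells and 0.13 in shControl cells, and MYBL2, which encodes B-MYB, by 0.23 and 0.16, without passing the test.

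Between the lines FOXM1 was lower in shp105 cells by 0.19 with TMZ (adjusted p = 0.0368) and differed by -0.17 with DMSO (adjusted p = 0.0611), while MYBL2 differed by 0.16 and 0.09 and was not called. MYBL1, a relative of MYBL2, was lower by 0.29 with TMZ (adjusted p = 0.00124) and by 0.37 with DMSO (adjusted p = 0.000223). TFDP2, a dimerisation partner of E2F factors, was higher by 0.33 (adjusted p = 0.00488) and 0.22 (adjusted p = 0.0477). LIN52, a DREAM subunit, was lower by 0.20 with DMSO (adjusted p = 0.0346). In all, 3 of the 17 regulators were lower and 1 higher under each treatment, with medians of -0.04 with TMZ and -0.03 with DMSO. These are small counts beside 11.0% and 11.6% of all genes lower and 10.1% and 8.34% higher, and nothing is read from them.

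Of 19 genes of the G2/M DNA damage checkpoint, 2 rose with TMZ in shp105 cells and 0 in shControl cells, where 0.647% and 0.253% of all genes rose. These were the checkpoint kinase CHEK2 (0.36, adjusted p = 0.00997) and the phosphatase PPM1D, which turns damage signalling off (0.56, adjusted p = 0.0107). In shControl cells CHEK2 differed by 0.21 (adjusted p = 0.137) and PPM1D by 0.37 (adjusted p = 0.108), without passing the test. Between the lines CLSPN, the adaptor of CHEK1 activation, was lower by 0.42 with TMZ (adjusted p = 0.0129) and by 0.33 with DMSO (adjusted p = 0.0444), and CHEK2 was lower by 0.29 with DMSO (adjusted p = 0.00171). HUS1, a part of the checkpoint clamp, was higher by 0.15 with TMZ (adjusted p = 0.047) and 0.17 with DMSO (adjusted p = 0.0282), and GADD45A, a stress-induced growth arrest gene, by 0.16 with TMZ (adjusted p = 0.0463). In all, 1 of the 19 was lower and 2 higher with TMZ, and 2 were lower and 1 higher with DMSO. The shares over all genes were 11.0% and 10.1% with TMZ and 11.6% and 8.34% with DMSO. Nothing is read from these small counts. The difference of TMZ responses was called for 0 genes in each of these lists, as over all genes.

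**Figure D5:**
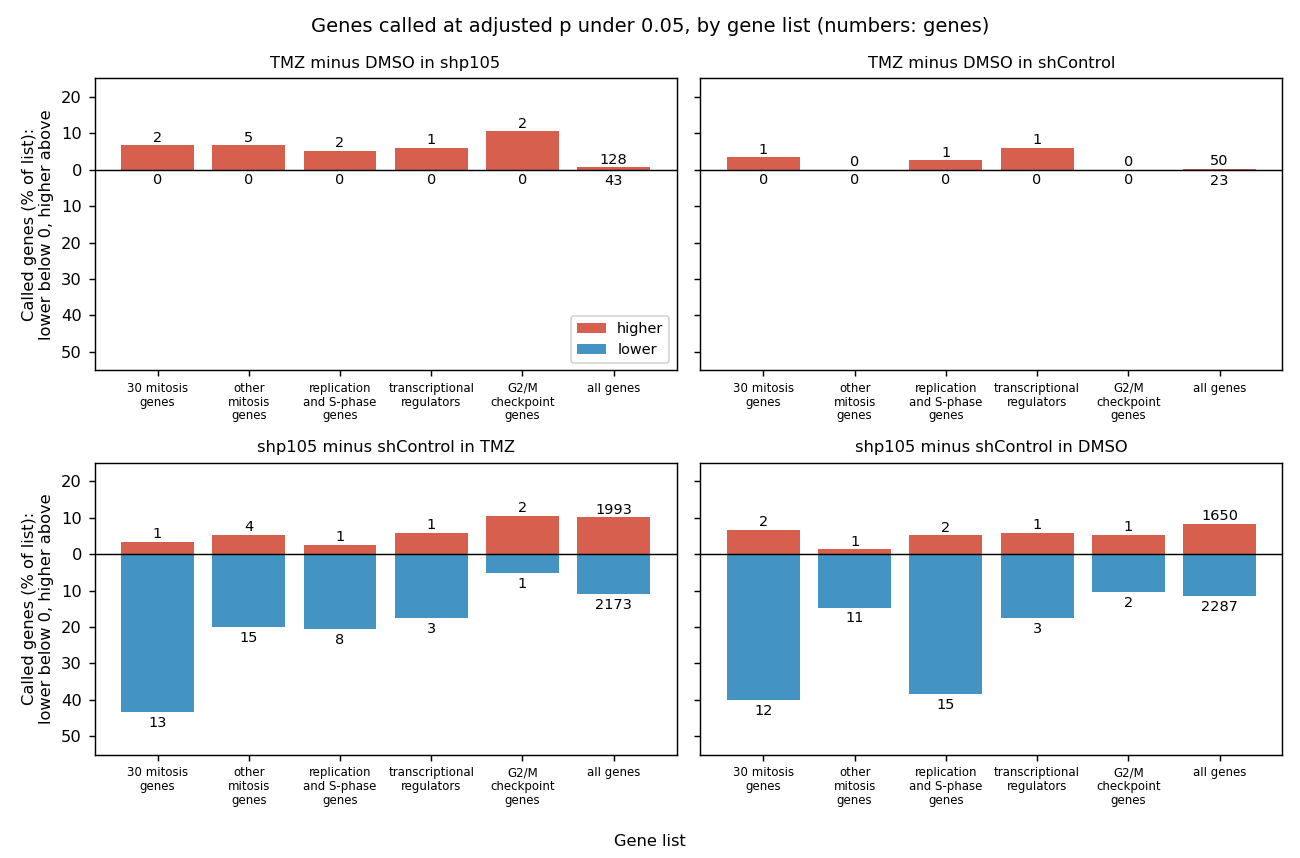
Share of each gene list (x axis) called higher, drawn upward, or lower, drawn downward (y axis, percent), in 4 comparisons, 1 panel each; the numbers on the bars are genes. The share of the 30 genes lower in shp105 cells than in shControl cells lies above the 11.0% and 11.6% of all genes under both treatments. The 30 genes all lie above the median level, while the share over all genes includes dimmer genes.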

How the data were processed

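Gene expression was measured on 12 arrays of U-87 MG cells. The authors deposited log2 expression values per probe set, made with RMA and Affymetrix Power Tools per the submitters' processing notes, with no version; annotation release and filters are not stated there. Of 54675 probe sets, 41097 had exactly 1 gene symbol in the platform's probe table, with symbols updated through Entrez identifiers to RefSeq (GRCh38.p14; 54 kept the older symbol). The 1801 with several symbols and the 11777 with none were not used for genes. The probe set with the highest mean over all samples stood for a gene, which left 19775 genes, without a filter or further normalisation.

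One limma fit of the 4 group means over the 12 samples (lmFit and eBayes, limma 3.58.1, R 4.3.3) gave 5 contrasts, with two-sided tests and Benjamini-Hochberg adjustment over all genes; genes with an adjusted p under 0.05 were called. Errors after a log2 difference are standard errors of that fit. The fit was tested on simulated data. The number of arrays limits the precision. The 30 genes and the lists were chosen with earlier results of these data known. All 30 are named by role, with sample values for up to 8 called genes per comparison by smallest p (the 3 smallest where fewer than 3 were called). Other mitosis genes are named for up to 4 called per direction by size, and regulators and checkpoint genes for up to 6 called by p, with NFKB1, CDKN1A, FOXM1 and MYBL2 in every comparison. Replicate numbers did not pair the samples: same-numbered deviations correlated at -0.14 to 0.12, above 0.1 for 2 of 18 pairs. Alternatives were probe set choice, a filter, scaling, sample weights, a variance trend, the groups in the fit, a replicate block, the control level as a covariate, the threshold and leaving out each sample. Promoter motifs were searched with Python 3.11.15.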

Additional observations from a re-analysis of the deposited data

How the results depend on the processing

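The number of members called with TMZ against DMSO in shp105 cells, 2 as reported, was 10 without genes below the median level, 12 with a variance trend and robust estimation, and 0 with median centring, sample weights, only the groups compared, a replicate block, the control level as a covariate or an adjusted p under 0.01; leaving out 1 sample gave 0 to 2. In shControl cells, where 1 was reported, it was 8 without genes below the median level, 11 with the variance trend, 2 with quantile normalisation, 3 with the mean over probe sets, sample weights or each probe set on its own, and 0 with only the groups compared, the replicate block, the covariate or an adjusted p under 0.01; leaving out 1 sample gave 0 to 1. Between the lines, where 14 were reported under each treatment, the covariate left 0 under both and an adjusted p under 0.01 left 9 with DMSO; leaving out 1 sample gave 11 to 14 with TMZ and 10 to 14 with DMSO, and the replicate block gave 14 with TMZ and 12 with DMSO. The difference of TMZ responses was called for 0 members under each of the 22 alternatives run. The BUB1 difference with DMSO reversed to 0.0233 (adjusted p = 0.874) with the mean over its probe sets. All 31 called results of single members lost their call with the covariate, and leaving out 1 sample kept the call in 299 of 372 values. Over all genes, calls for TMZ against DMSO numbered 171 in shp105 cells and 73 in shControl cells as reported, 904 and 291 without genes below the median level, 937 and 358 with the variance trend, 2 and 19 with only the groups compared, 84 and 30 with the replicate block, and 13 and 0 with the covariate. The difference of responses, 0 as reported, was called for 8 genes without those below the median level and 12 with the variance trend, none of them a member. Between the lines the covariate left 1045 of 4166 with TMZ and 523 of 3937 with DMSO. Without genes below the median level, 4332 genes were called between the lines with TMZ, 17 of them members. With DMSO 4176 were called, 20 of them members. That fit held only the genes at or above the median level, fewer than the 19775 of the reported fit. Where a value changed, the cause was not tested.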
